A study of Mus musculus with 15 samples.

Results

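Kidneys of wild-type (WT) mice given D-alanine (D-ala) were compared with kidneys of WT mice given L-alanine (L-ala), each with a labelled time of 2 h, across all genes of a messenger RNA sequencing table. The comparison took the 5 libraries labelled D-ala and the 5 labelled L-ala, 10 of the 15 libraries in the series. The other 5 libraries, WT kidney labelled vehicle with the same time, gave each gene's level without either isomer. No group carries an engineered allele in the labels, and the sources used here state no dose, route, strain, age or vehicle composition, so equal dosing is not claimed. The labels do not say that the libraries came from separate animals. Each p-value therefore sets a difference against the spread between libraries, part of which may be technical. For single genes that spread was taken within the groups over all 15 libraries. Levels are in FPKM, fragments scaled by transcript length and library depth, and are given as mean ± SD (n = 5) or library by library in the order of replicates 1 to 5, which follow the order of the samples.

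Alanine has mirror-image forms that differ only in the handedness of the alpha carbon. L-alanine is built into proteins and is, through alanine aminotransferase, a source of pyruvate for glucose synthesis in liver and kidney. D-alanine is not used in mammalian protein synthesis; the proximal tubule holds D-amino acid oxidase, a peroxisomal enzyme that converts it to pyruvate with release of ammonia and hydrogen peroxide. The kidney also answers acute stimuli with fast transcriptional programmes, among them NF-kB target genes, immediate early genes and clock output genes, whose messenger RNAs can change within hours.

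The libraries carried the markers of kidney. All 16 proximal tubule markers of the list used here passed the filter on low values, and the androgen-regulated proximal tubule gene Kap ran from 72069 to 138266 FPKM over the 10 alanine libraries. Of 11 adrenal markers none passed, and Cyp11b1, Cyp11b2, Th and Dbh were at 0 in every library. Recovered depth, in units of 1e6 reads, was 9.83 to 10.4 in the D-ala libraries and 8.7 to 10.9 in the L-ala libraries. Replicate 5 of L-ala lay away from the rest of its group. On the first principal component of the 10 alanine libraries, which held 26% of the variance, it scored 8.4 against -23.7 to -10.2 in the other L-ala libraries and 6.7 to 14.5 in the D-ala libraries. A second measure moved with the groups: Spearman's rho, across genes, between a library's deviation from each gene's mean and the gene's length was -0.07 to 0.35 in the D-ala libraries, -0.49 to -0.18 in L-ala replicates 1 to 4 and 0.23 in L-ala replicate 5. The mean rho was 0.12 ± 0.16 (SD) under D-ala and -0.27 ± 0.31 under L-ala, with an exact two-sided permutation p of 0.0476 over 252 splits. L-ala replicate 5 stood apart on this same measure, and without it the groups separate fully. A p-value without it was thus fixed in advance and is not given. Short genes therefore read higher in 4 of the 5 L-ala libraries than in the D-ala libraries. Many list counts below move when 1 library is left out or when the length trend of each library is removed, and such counts are given beside the main ones.

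**Figure D1:**
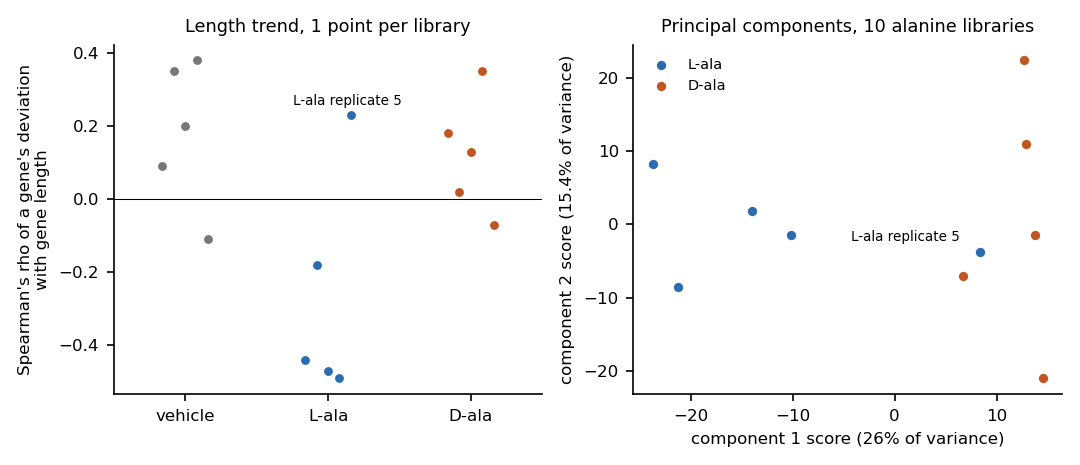
The left panel plots, for each of the 15 libraries, Spearman's rho across genes between the library's deviation from each gene's mean log2 level and gene length. The right panel plots the first and second principal component scores of the 10 alanine libraries, with D-ala in orange and L-ala in blue. L-ala replicate 5 lies among the D-ala libraries in both panels, at a rho of 0.23 and a component 1 score of 8.4.

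Across the transcriptome the isomers differed at many genes by small amounts and at few genes by large ones. Of 11781 genes tested with limma on log2(FPKM + 1), 1611 (13.7%) were called different at a Benjamini-Hochberg adjusted p under 0.05. The calls divided into 826 genes higher under D-ala (7.01%) and 785 lower under D-ala (6.66%). These shares over all tested genes are the ones to set beside each list count below. The median size of a called difference was 0.32 on the log2 scale, and 1456 of the 1611 called genes differed by less than 1.5-fold. Only 23 called genes were higher by 2-fold or more and 12 lower by 2-fold or more. At 1073 genes (9.11%) the 5 D-ala and the 5 L-ala libraries did not overlap, and 860 of these were called. The median difference over all tested genes was -0.009. Among the 10170 genes that were not called, 9431 (92.7%) had a 95% interval of the difference that lay within 1.5-fold in either direction. These intervals are on the log2(FPKM + 1) scale, which makes differences of low genes smaller, and the remaining 11503 genes of the table were not tested. Without L-ala replicate 5 the calls numbered 2761, of which 1261 were higher and 1500 lower under D-ala, and without L-ala replicate 4 they numbered 770, of which 467 were higher and 303 lower.

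**Figure D2:**
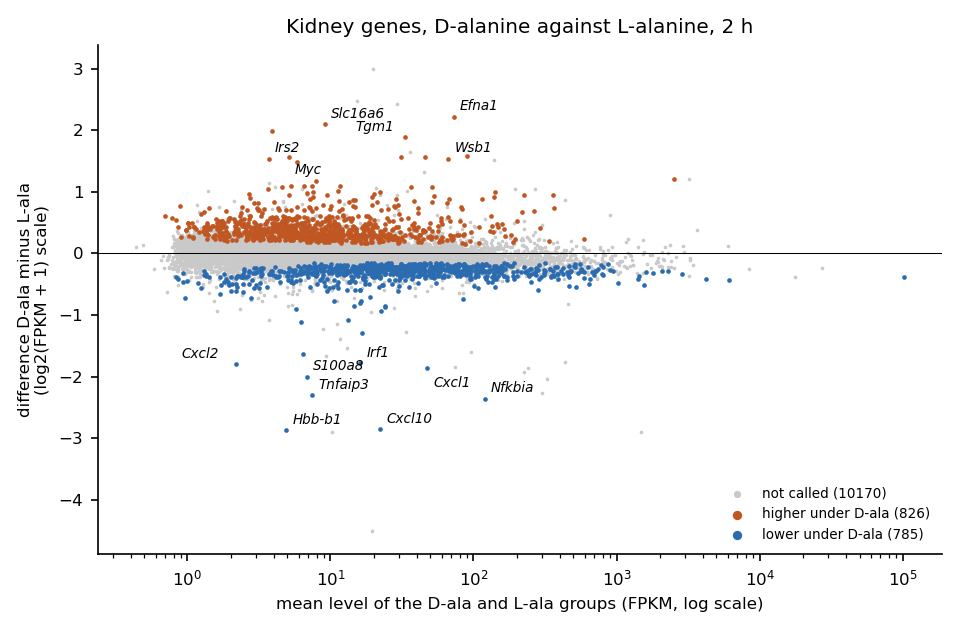
Each point is 1 of 11781 tested genes, with the mean level of the D-ala and L-ala groups (FPKM, log axis) on the x axis and the D-ala minus L-ala difference on the log2(FPKM + 1) scale on the y axis. Orange points are the 826 genes called higher and blue points the 785 called lower under D-ala; Efna1 and Slc16a6 lie at the top with differences of 2.22 and 2.10, and Cxcl10 and Nfkbia near the bottom at -2.85 and -2.36.

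Several of the largest decreases under D-ala relative to L-ala were in NF-kB target genes and chemokines. The 6 largest are described below, and their lack of overlap between the groups was a condition of the rule that named them. In the whole lists, 4 of 21 tested NF-kB genes and 3 of 12 tested chemokines and cytokines did not overlap, beside 9.11% of all genes. Members high in a single group can pass the filter on low values through it, so nothing is read from that difference. Nuclear factor kB (NF-kB) is a transcription factor held in the cytoplasm by inhibitors such as the protein encoded by Nfkbia; on release it enters the nucleus and induces chemokines along with its own brakes, Nfkbia and Tnfaip3. The 250 bases upstream of the RefSeq start site (build GRCm38.p6, the same build as mm10) are shown for the 6 genes of these lists with the largest called decreases, to let the letters of the 10-base NF-kB consensus be seen in place. Capitals mark the matches, which were searched on both strands; in Cxcl1 and Cxcl2 the matches of the opposite strands overlap and form a single run.
Cxcl1 (chr5:90890995-90891244, + strand): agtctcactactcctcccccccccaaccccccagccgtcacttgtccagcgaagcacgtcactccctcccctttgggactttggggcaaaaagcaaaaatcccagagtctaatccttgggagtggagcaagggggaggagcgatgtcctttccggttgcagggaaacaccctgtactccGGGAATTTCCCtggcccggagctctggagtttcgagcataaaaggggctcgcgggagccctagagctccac
Cxcl2 (chr5:90903649-90903898, + strand): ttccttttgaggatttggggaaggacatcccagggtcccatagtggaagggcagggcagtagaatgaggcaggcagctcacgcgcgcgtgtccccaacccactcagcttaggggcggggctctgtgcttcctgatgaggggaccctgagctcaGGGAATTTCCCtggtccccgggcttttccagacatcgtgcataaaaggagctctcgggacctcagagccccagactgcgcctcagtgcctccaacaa
Cxcl10 (chr5:92348890-92349139, - strand): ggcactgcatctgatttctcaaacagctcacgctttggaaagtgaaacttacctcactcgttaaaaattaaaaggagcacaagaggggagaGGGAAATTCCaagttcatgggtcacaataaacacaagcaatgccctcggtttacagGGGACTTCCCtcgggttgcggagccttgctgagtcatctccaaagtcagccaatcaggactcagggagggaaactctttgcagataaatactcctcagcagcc
Nfkbia (chr12:55492648-55492897, - strand): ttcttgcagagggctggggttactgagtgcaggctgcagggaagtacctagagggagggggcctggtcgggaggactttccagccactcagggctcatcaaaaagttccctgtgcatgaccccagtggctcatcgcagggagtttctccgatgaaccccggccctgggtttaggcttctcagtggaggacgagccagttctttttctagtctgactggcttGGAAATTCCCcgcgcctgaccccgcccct
Tnfaip3 (chr10:19015411-19015660, - strand): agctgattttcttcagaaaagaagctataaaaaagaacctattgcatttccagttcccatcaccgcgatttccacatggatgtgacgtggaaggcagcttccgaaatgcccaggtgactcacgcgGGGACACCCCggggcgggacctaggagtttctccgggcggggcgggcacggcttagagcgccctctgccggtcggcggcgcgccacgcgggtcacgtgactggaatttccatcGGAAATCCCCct
Irf1 (chr11:53769764-53770013, + strand): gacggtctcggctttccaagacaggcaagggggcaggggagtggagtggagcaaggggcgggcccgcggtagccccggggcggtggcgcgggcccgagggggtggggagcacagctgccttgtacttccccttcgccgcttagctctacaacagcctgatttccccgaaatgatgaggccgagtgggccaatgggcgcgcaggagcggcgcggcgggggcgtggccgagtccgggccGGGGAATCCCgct

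Over 11999 RefSeq promoters of 9371 tested genes, with a chromosome left out of the search, 4.44% held a match in the same window. The 6 genes were picked from lists of NF-kB targets and chemokines, so nothing is read from that difference. The matches end 61 and 62 bases before the start site in Cxcl1 and 87 and 88 bases before it in Cxcl2. Those of Cxcl10 end at 150 and 94 bases, that of Nfkbia at 20, those of Tnfaip3 at 116 and 3, and that of Irf1 at 4 bases. The second annotated promoters of Tnfaip3 and Irf1 hold none. A match is a description of the letters and shows no binding. For 5 genes that were higher under D-ala, the same windows were searched on both strands for TGACG, the cAMP response element half-site, which 26.4% of the promoters hold. It was found in a promoter of Slc20a1 and of Wsb1 and not in those of Efna1, Irs2 and Adm2.

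Nfkbia, which encodes the NF-kB inhibitor IkB-alpha, was at 35.6, 86.5, 18.5, 22.8 and 50.2 FPKM in the D-ala libraries and at 162, 189, 282, 204 and 148 FPKM in the L-ala libraries. Every L-ala library lay above every D-ala library, and the vehicle libraries (22 to 51.9 FPKM) lay in the range of the D-ala ones. The L-ala mean was 4.61 times the D-ala mean, a log2 difference of -2.36 ± 0.37 (SE) with an adjusted p of 0.00227.

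Tnfaip3 encodes the ubiquitin-modifying enzyme A20, a brake on NF-kB. Its levels were 1.19, 5.45, 0.927, 1.45 and 1.35 FPKM under D-ala against 8.07, 16.5, 12.5, 14.4 and 12.5 under L-ala. D-ala replicate 2 was the highest of its group for both brakes, and it still lay below all L-ala libraries. The log2 difference was -2.30 ± 0.32 (adjusted p = 8.60e-04), and the vehicle mean was 2.2 ± 1.27 FPKM.

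Irf1, an interferon regulatory factor and NF-kB target, stood at 5.25 to 7.96 FPKM in the D-ala libraries and at 15.2, 39.1, 34, 22.1 and 19.2 in the L-ala libraries. Its difference was -1.78 ± 0.30 on the log2 scale (adjusted p = 0.00325). The groups did not overlap, and the D-ala libraries were close to one another while the L-ala libraries spread widely.

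The neutrophil-attracting chemokine Cxcl2 was near the floor under D-ala, at 0.112, 1.05, 0.104, 0.215 and 0.532 FPKM, and at 2.32, 4.1, 6.57, 3.94 and 2.79 under L-ala. This log2 difference of -1.80 ± 0.20 (adjusted p = 6.84e-05) understates the ratio of the means, which was 9.77, because 1 FPKM was added before taking logs.

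Cxcl1, another neutrophil chemokine gene on chromosome 5, was higher in both alanine groups than in vehicle (1.27 ± 0.782 FPKM). The D-ala libraries held 16.8, 45.4, 2.83, 16.6 and 42.7 FPKM and the L-ala libraries 62, 64.5, 102, 69.9 and 51. D-ala replicates 2 and 5 came close to L-ala replicate 5 without reaching it. The call was marginal, at -1.87 ± 0.57 (adjusted p = 0.0479), and held in 10 of 28 alternative analyses, in which the adjusted p ran from 0.0251 to 0.106; both alanine groups were called against vehicle, with adjusted p of 0.00453 for D-ala and 9.54e-04 for L-ala.

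Cxcl10, a chemokine for T cells that is induced by interferon and NF-kB, was at 2.74 to 8.58 FPKM under D-ala and at 15.7, 60.1, 51.4, 33.7 and 38.7 under L-ala, with a difference of -2.85 ± 0.79 (adjusted p = 0.034). One vehicle library reached 68.7 FPKM, above every alanine library, while the lowest was at 1.49. The call was lost in 8 of the 28 alternatives, with adjusted p up to 0.0734.

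**Figure D3:**
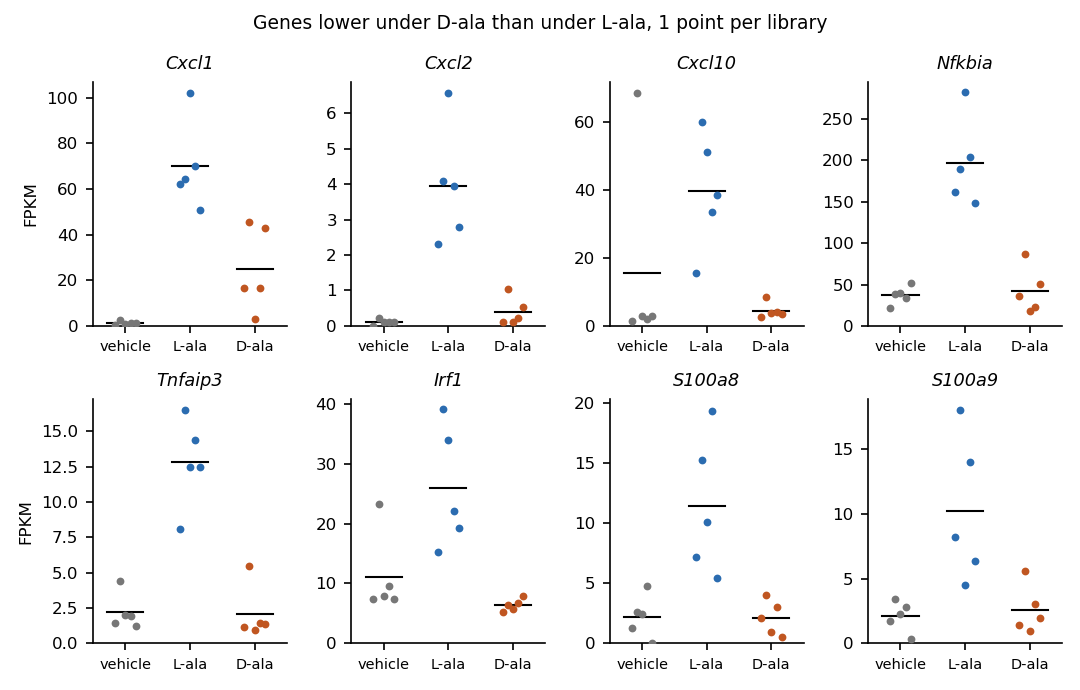
Each panel plots 1 gene in FPKM on a linear axis from 0, with 1 point per library for vehicle (grey), L-ala (blue) and D-ala (orange) and a line at the group mean. In Cxcl1, Cxcl2, Cxcl10, Nfkbia, Tnfaip3, Irf1 and S100a8 every L-ala library lies above every D-ala library, a condition of the rule that named them. In S100a9 the highest D-ala library (5.6 FPKM) overlaps the lowest L-ala library (4.52 FPKM).

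As a list, 21 NF-kB targets and brakes were tested; 5 were lower under D-ala and none higher, with a median difference of -0.17 beside -0.009 over all genes. The other called members were Cd83, a dendritic cell and activation marker, at 1.04 ± 0.111 against 2.36 ± 1.02 FPKM (log2 difference -0.66, adjusted p = 0.0322), and Sod2, the mitochondrial superoxide dismutase, at 99.6 ± 2.65 against 112 ± 7.22 FPKM (-0.17, adjusted p = 0.042). Icam1, an adhesion molecule, missed the threshold at -0.77 ± 0.25 (adjusted p = 0.0554). Of 26 chemokines and cytokines listed, 12 passed the filter on low values. The 3 described were lower, none was higher, and the median was -0.37. A gene high in a single group can pass that filter, and Cxcl2 was above 1 FPKM in every L-ala library. These counts can therefore lean towards genes high under L-ala. Leaving out 1 library gave 3 to 6 lower members of the NF-kB list, with 3 for each of D-ala replicates 1, 3, 4 and 5 and L-ala replicates 3 and 4. For the chemokines it gave 1 to 6, with 1 for each of D-ala replicates 1 and 4 and L-ala replicates 2, 3 and 4, and 6 without L-ala replicate 5. The summed FPKM of the NF-kB list was 218 to 307 in the D-ala libraries and 389 to 565 in the L-ala libraries. In L-ala replicate 5, Nfkbia (148 FPKM), Tnfaip3 (12.5 FPKM) and Cxcl2 (2.79 FPKM) were all above the highest D-ala library. Lack of overlap was a condition of the rule that named these genes, so nothing about replicate 5 is read from it.

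Among transcripts of blood cells, 2 of 2 tested neutrophil and 1 of 7 tested red cell transcripts were lower under D-ala, beside 6.66% of all tested genes. Of 12 neutrophil markers only S100a8 and S100a9, which encode the calprotectin subunits, passed the filter, and both were lower under D-ala. Both were above 1 FPKM in every L-ala library, so the L-ala group alone was enough to pass them. The count of 2 of 2 is therefore not read as a result about the list. S100a8 was at 2.13, 4.01, 0.991, 3.07 and 0.506 FPKM under D-ala and at 7.19, 15.3, 10.1, 19.4 and 5.42 under L-ala, with an L-ala mean 5.36 times the D-ala mean (adjusted p = 0.0195). S100a9 differed by -1.63 ± 0.42 (adjusted p = 0.0235). Neither was called without L-ala replicate 4 (S100a8 adjusted p = 0.0516, S100a9 adjusted p = 0.0624), and S100a9 was not called with the length trend removed (0.0647). The summed neutrophil list ran from 2.58 to 11.6 FPKM under D-ala and from 13.5 to 36 under L-ala, with Camp at 0 in every library. Of 7 red cell transcripts tested, 6 had negative differences and 1, Hbb-b1, was called (adjusted p = 0.038, held in 16 of 28 alternatives); its mapping is uncertain because near-identical beta-globin genes can share reads, and L-ala replicate 4 read 0.003 FPKM where the other L-ala libraries read 6.96 to 22.2. Summed red cell transcripts were 76.2 to 504 FPKM under D-ala and 308 to 788 under L-ala. The part of blood cells in the chemokine and NF-kB differences was not tested. In bulk tissue, fewer cells of a type and less RNA per cell cannot be told apart.

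Of 11 macrophage and dendritic cell markers tested, 3 were lower under D-ala and none higher, with a median of -0.37. Lyz2, the macrophage lysozyme, was at 5.88 to 8.47 FPKM under D-ala, 9.56 to 13.2 under L-ala and 13.1 to 17 in vehicle, and the D-ala to L-ala difference was -0.53 ± 0.10 (adjusted p = 0.00348), called in all 28 alternatives. Reads of the near-identical Lyz1 could be shared with it. C1qb (-0.47, adjusted p = 0.0451) and Aif1 (-0.38, adjusted p = 0.0491) were called less stably, in 11 and 9 of the 28 alternatives; With the length trend removed 1 member was called, and leaving out 1 library gave 1 to 4, with 1 for D-ala replicates 1 to 4, L-ala replicates 1, 3 and 4 and vehicle replicates 2 and 3. None of 12 lymphocyte markers passed the filter, and their sum was 2.38 to 4.83 FPKM over the alanine libraries.

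On the other side, the gene with the strongest evidence of a higher level under D-ala was Efna1, which encodes ephrin-A1, a membrane-anchored ligand of EphA receptors. Efna1 (GRCm38.p6 chromosome 3, 89271730 to 89280951) was at 108, 118, 107, 150 and 118 FPKM under D-ala and at 18.9, 24.3, 31.2, 25.1 and 25.8 under L-ala. The lowest D-ala library was more than 3 times the highest L-ala library, and the vehicle libraries (28.2 to 36.4 FPKM) were near the L-ala ones. The difference was 2.22 ± 0.11 (adjusted p = 8.54e-09); against vehicle it was 1.88 for D-ala (adjusted p = 2.98e-08) and -0.34 for L-ala (adjusted p = 0.058).

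Slc16a6 encodes MCT7, a member of the monocarboxylate carrier family. Its levels were 15.6, 14.5, 15.8, 18.1 and 13.4 FPKM under D-ala and 3.38, 2.42, 2.31, 2.84 and 3.23 under L-ala, 5.45 times as high by the means. L-ala and vehicle (2.37 ± 0.544) did not differ beyond the spread (0.19, adjusted p = 0.258), and the D-ala to L-ala difference of 2.10 ± 0.11 had an adjusted p of 1.12e-08.

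Slc20a1 encodes PiT-1, a sodium-dependent phosphate carrier. It stood at 56.8, 70.1, 60.6, 80.3 and 79.3 FPKM under D-ala and at 26.2, 17.3, 23.2, 26 and 20.7 under L-ala (1.57 ± 0.16, adjusted p = 5.80e-05). Slc34a1, the main phosphate carrier of the proximal tubule brush border, was at 1747 ± 111 and 1771 ± 51.1 FPKM, with a 95% interval of the log2 difference from -0.15 to 0.11. Slc20a2, which encodes the related PiT-2, was at 18.6 ± 1.67 and 15.5 ± 1.91 FPKM (0.25, adjusted p = 0.0568).

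Wsb1, which encodes a SOCS-box subunit of a ubiquitin ligase, was at 91.9 to 111 FPKM under D-ala against 26.8 to 40.6 under L-ala and 23 to 32.1 in vehicle (1.54 ± 0.10, adjusted p = 1.18e-07). Adm2, encoding the vasoactive peptide intermedin, was at 7.95, 12.7, 7.84, 7.87 and 8.9 FPKM under D-ala and at 1.85 to 3.38 under L-ala (1.49 ± 0.14, adjusted p = 1.67e-05). Tgm1, a transglutaminase that cross-links proteins, varied more under D-ala, at 38.7, 54.7, 62, 20.1 and 93.8 FPKM, and all 5 values lay above the L-ala range of 8.67 to 15.9 (1.89 ± 0.32, adjusted p = 0.00348). Mcm10, a DNA replication factor, was at 5.58 to 10.8 against 1.91 to 3.75 FPKM (1.09 ± 0.16, adjusted p = 8.32e-04). For Efna1, Slc16a6, Slc20a1, Wsb1, Adm2, Tgm1 and Mcm10 the lack of overlap was a condition of the rule that named them. Fgf18, a fibroblast growth factor named after its values were seen, was at 6.7, 11.6, 6.97, 1.18 and 8.71 FPKM under D-ala and at 0.331 to 1.22 under L-ala (1.98 ± 0.36, adjusted p = 0.00433). Its D-ala replicate 4 lay within the L-ala range.

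**Figure D4:**
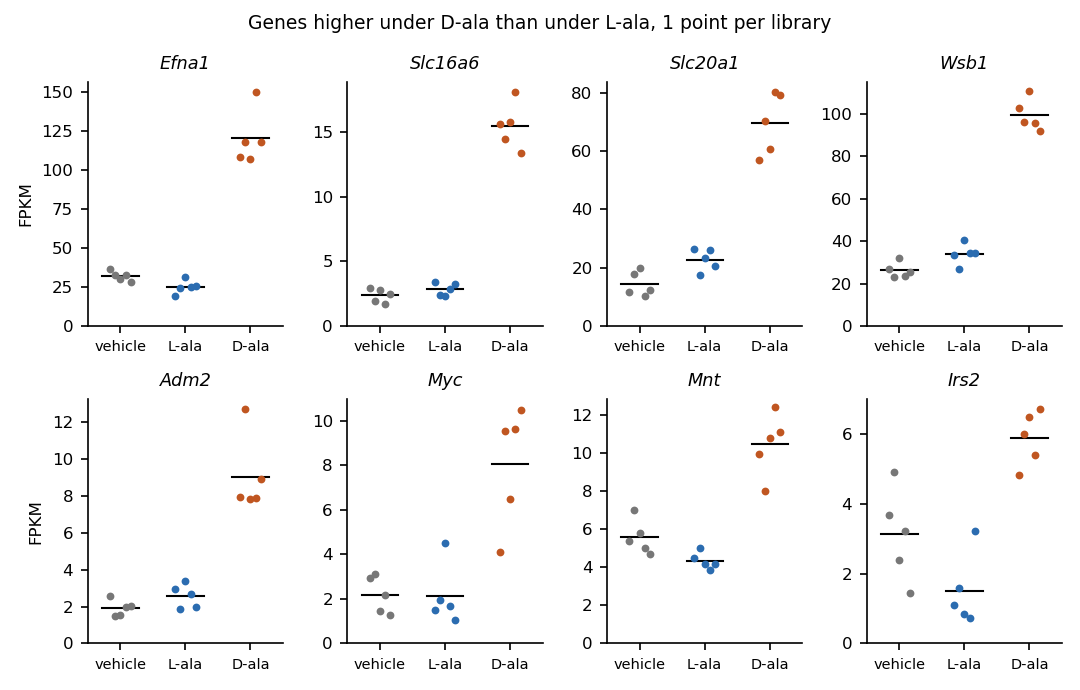
Each panel plots 1 gene in FPKM on a linear axis from 0, with 1 point per library for vehicle (grey), L-ala (blue) and D-ala (orange) and a line at the group mean. In Efna1, Slc16a6, Slc20a1, Wsb1, Adm2, Mnt and Irs2 every D-ala library lies above every L-ala library, a condition of the rule that named them. In Myc the lowest D-ala library (4.12 FPKM) overlaps the highest L-ala library (4.5 FPKM).

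Growth-linked transcription factors and immediate early genes did not move as a block. Of 26 immediate early genes tested, 5 were higher under D-ala (Myc, Zfp36l2, Ier5l, Fosl2 and Klf10), beside 7.01% of all genes. Arc was the 1 lower member (3 without L-ala replicate 5), beside 6.66%, and the median was 0.11. Myc, the proto-oncogene and driver of ribosome production, was at 4.12, 9.55, 6.5, 9.62 and 10.5 FPKM under D-ala and at 1.49, 1.95, 4.5, 1.68 and 1.06 under L-ala (1.56 ± 0.27, adjusted p = 0.00348). Mnt, which encodes a partner of Max that opposes Myc, was higher too, at 8.02 to 12.4 against 3.83 to 5.02 FPKM (1.10 ± 0.11, adjusted p = 1.67e-05). Of the shared partners, Max was lower under D-ala (-0.22, adjusted p = 0.0375) and Mlx higher (0.24, adjusted p = 0.00877); both were named after their values were seen.

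The AP-1 subunit gene Fosl2 was higher under D-ala, at 11 to 29.7 against 5.63 to 8.12 FPKM (1.10 ± 0.26, adjusted p = 0.0158). Fos itself pointed the other way without passing the test. Its D-ala libraries were at 7.54 to 14.2 FPKM and its L-ala libraries at 17.2, 22.7, 62.3, 19.6 and 13.2 (-0.95, 95% interval -1.94 to 0.03, adjusted p = 0.174). Arc, an activity-regulated gene best known from neurons, was lower under D-ala, at 2.62 to 4.75 against 4.55 to 13.5 FPKM (-1.12 ± 0.28, adjusted p = 0.0192). Egr1, a zinc finger immediate early factor, was lower in every D-ala library (8.98 to 24.2 FPKM) than in every L-ala library (37.4 to 69.8), but with an adjusted p of 0.0933 it was not called; in a fit of the 10 alanine libraries alone it was (0.0262). Plk3, a stress-responsive polo-like kinase, was at 241, 296, 148, 161 and 174 FPKM under D-ala, at 36, 60.6, 54.7, 116 and 109 under L-ala and at 2.57 to 47.5 in vehicle. These groups did not overlap either. The difference of 1.51, whose variance is shared with the vehicle libraries, had a 95% interval from 0.18 to 2.85 and an adjusted p of 0.118; with the 10 alanine libraries alone Plk3 was called (0.0277). Ddit4, a stress-induced inhibitor of mTORC1 named after its values were seen, was at 31.5 to 60.7 FPKM under D-ala and 92.4 to 214 under L-ala with no overlap (-1.61 ± 0.51, adjusted p = 0.0549, and 0.00732 with the 10 alanine libraries alone).

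Feedback genes of growth signalling followed a mixed pattern. Among 14 tested MAP kinase feedback inhibitors, Dusp4 (9.55 ± 2.9 against 4.23 ± 0.676 FPKM, 0.98, adjusted p = 0.00227) and Dusp5 (4.27 ± 1.76 against 2.1 ± 0.432 FPKM, 0.71, adjusted p = 0.0215) were higher under D-ala. Dusp7 was lower (-0.32, adjusted p = 0.0294), and 12 of the 14 differences were positive. Leaving out 1 library gave 1 to 3 higher members, with 1 without L-ala replicate 1; no member was lower without D-ala replicate 1, 2, 3 or 4 or L-ala replicate 4. The antiproliferative gene Tob1 was at 169 to 210 FPKM under D-ala, 74.4 to 111 under L-ala and 46.7 to 69.6 in vehicle, so that the 3 groups were ordered without overlap (0.99 ± 0.11, adjusted p = 7.14e-05). Its relative Btg1 was lower under D-ala (8.96 ± 0.668 against 13.7 ± 1.66 FPKM, -0.56, adjusted p = 8.25e-04). Of 18 tested genes of IL-6 family signalling, Pim1, Stat3 and Socs2 were higher under D-ala and none was lower; 2 were called when any 1 library but D-ala replicates 1 and 4 was left out. Stat3, the pathway's transcription factor, differed by 0.51 ± 0.08 (adjusted p = 0.00149), and Pim1, a kinase that it induces, by 0.65 ± 0.10 (adjusted p = 8.25e-04). The Socs2 call (0.95, adjusted p = 0.0489) held in 9 of 28 alternatives. None of 11 EGF receptor ligands and receptors was called (1 without L-ala replicate 2 or 5).

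Among Kruppel-like, Id and inhibitory Smad genes, 6 of 16 tested were higher under D-ala and none was lower, with a median of 0.26. Klf3, a transcriptional repressor, was at 12.6 to 18.8 FPKM under D-ala and 6.11 to 8.69 under L-ala (1.01 ± 0.10, adjusted p = 1.90e-05). Id3, an inhibitor of basic helix-loop-helix factors, was at 160, 167, 167, 101 and 142 FPKM against 79.7, 61.8, 120, 81.8 and 59.5 (0.88 ± 0.17, adjusted p = 0.00539), with 1 D-ala library below the highest L-ala library. Smad7, which blocks TGF-beta receptors, was at 9 ± 0.664 against 5.85 ± 0.939 FPKM (0.56, adjusted p = 0.00329). Klf11, Klf10 and Id2 were the other called members, with differences of 0.59, 0.72 and 0.41.

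Of 18 insulin receptor substrates and FoxO targets tested, 4 were higher under D-ala and none lower. Lower members numbered 2 with the length trend removed, 2 without D-ala replicate 1 and 1 without L-ala replicate 5. Irs2, the insulin receptor substrate that FoxO factors induce in fasting, was at 4.84, 6.01, 6.5, 5.41 and 6.71 FPKM under D-ala and at 1.11, 1.6, 0.836, 0.719 and 3.23 under L-ala, and L-ala replicate 5 was the highest of its group. Irs2 differed by 1.54 ± 0.24 (adjusted p = 0.00165). Its vehicle mean of 3.13 ± 1.32 FPKM lay between the isomers, with differences from vehicle of 0.80 for D-ala (adjusted p = 0.0458) and -0.74 for L-ala (adjusted p = 0.0595). Arrdc3, an alpha-arrestin, also had vehicle in between: 50 ± 7.74 FPKM under D-ala, 33.4 ± 7.77 in vehicle and 23.1 ± 3.76 under L-ala. For Arrdc3 both contrasts with vehicle were called, at 0.58 (adjusted p = 0.0149) and -0.50 (adjusted p = 0.0362), and the isomers differed by 1.08 ± 0.14 (adjusted p = 3.97e-04). Its relative Arrdc2 went the other way, at 6.4 to 11.7 FPKM under D-ala and 10.4 to 29 under L-ala (-1.08 ± 0.30, adjusted p = 0.0308). Foxo3 (0.94, adjusted p = 0.00841) and Pik3r1, the regulatory subunit of phosphoinositide 3-kinase (0.54, adjusted p = 0.00534), were higher without overlap. Over all genes, 11.5% were called between D-ala and vehicle and 11% between L-ala and vehicle; these contrasts share the vehicle libraries.

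The called clock genes all encode known repressors of the transcriptional loop or of its outputs. Of 17 tested core clock and output genes, 6 were higher under D-ala (Bhlhe40, Nfil3, Nr1d1, Cry2, Per2 and Gm129), beside 7.01% of all genes. Nr1d2 was the 1 lower member, beside 6.66%, and the median was -0.00. The higher count was 3 without D-ala replicate 1, D-ala replicate 2, L-ala replicate 1 or L-ala replicate 4. Cry2 was called in 23 of 28 alternatives and Gm129 in 20. Bhlhe40, which encodes the repressor DEC1, was at 117, 116, 135, 178 and 131 FPKM under D-ala, 39.2, 44.4, 52, 40.2 and 45.4 under L-ala and 44.6 ± 9.87 in vehicle (1.58 ± 0.15, adjusted p = 1.54e-05). Nfil3, the repressor E4BP4, was at 12.9, 13.1, 14, 4.69 and 13.3 FPKM against 3.76 to 5.16 (1.18 ± 0.22, adjusted p = 0.00418). D-ala replicate 4 read within the L-ala range for Nfil3, as it did for Fgf18. The REV-ERB genes parted: Nr1d1 was at 36.8 ± 3.36 against 23.8 ± 6.01 FPKM (0.64, adjusted p = 0.0178) and Nr1d2 at 26.2 ± 1.45 against 32.9 ± 2.02 (-0.32, adjusted p = 0.00664). Of the period genes, Per2 was higher at 0.41 ± 0.12 (adjusted p = 0.0352), a call that held in 17 of 28 alternatives, and Per1 was at 24 to 41.7 against 16.7 to 23.7 FPKM with no overlap but an adjusted p of 0.147 (0.0273 with the 10 alanine libraries alone).

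Of 20 tested gluconeogenic genes 1 was called between the isomers, beside 13.7% of all tested genes. Genes of the cAMP-responsive list were called in both directions, with 3 of 20 higher and 1 of 20 lower under D-ala. G6pc, glucose-6-phosphatase, which releases free glucose, was at 641, 525, 352, 383 and 389 FPKM under D-ala and 214, 368, 231, 261 and 281 under L-ala (0.74 ± 0.18, adjusted p = 0.0185). It was the only called gene of 20 in gluconeogenesis, whose median was -0.02; 3 members were lower without L-ala replicate 5, 1 was lower with the length trend removed, and 2 were higher without L-ala replicate 4 or vehicle replicate 2. Pck1, phosphoenolpyruvate carboxykinase, was at 3540 to 4671 against 2899 to 3491 FPKM with no overlap, and its difference of 0.38 had a 95% interval from -0.01 to 0.77 (adjusted p = 0.168, and 0.0348 with the 10 alanine libraries alone). Gpt, which encodes cytosolic alanine aminotransferase, was at 29.9 ± 5.41 against 23.9 ± 4.91 FPKM (0.32, interval 0.05 to 0.58, adjusted p = 0.103). Sik1, a salt-inducible kinase and cAMP feedback gene, was at 69.3 to 92.1 FPKM under D-ala, 34.4 to 65.3 under L-ala and 13.5 to 32.4 in vehicle (0.81 ± 0.21, adjusted p = 0.0218). Among 20 cAMP and CREB targets G6pc, Sik1 and Crtc2 were higher and Creb1 was lower (-0.34, adjusted p = 0.0166), and 6 of the 20 did not overlap between the groups, beside 9.11% of all genes. The summed level of this list, most of it from Pck1, which was not called, was 4225 to 5651 FPKM under D-ala and 3452 to 4026 under L-ala. Without L-ala replicate 5 it held 5 higher and 2 lower members, and without vehicle replicate 1 it also held 2 lower.

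None of the enzymes that act directly on D-amino acids was called between the isomers. Dao, D-amino acid oxidase, was at 282, 236, 244, 266 and 276 FPKM under D-ala and 263, 268, 285, 276 and 240 under L-ala, and the interval of the log2 difference was -0.19 to 0.12 (adjusted p = 0.799). Ddo, D-aspartate oxidase, differed by -0.22 with an interval from -0.46 to 0.01 (adjusted p = 0.186), and Srr, serine racemase, by 0.06 with an interval from -0.05 to 0.17 (adjusted p = 0.436). Cat, the peroxisomal catalase that breaks down hydrogen peroxide, was higher under D-ala, at 627 to 660 against 457 to 611 FPKM (0.24 ± 0.07, adjusted p = 0.0257). Sod1, the cytosolic superoxide dismutase, was lower (702 ± 37.6 against 901 ± 118 FPKM, -0.35, adjusted p = 0.0203); its adjusted p was 0.0593 with the length trend removed. These were the 2 calls among 13 tested genes of D-amino acid and alanine metabolism. Cat was called when any 1 library was left out other than D-ala replicate 1 or 3, and Sod1 when any but L-ala replicate 4 was. In a limma fit of the 10 alanine libraries alone Cat was not called (adjusted p = 0.0601) and Sod1 was (adjusted p = 0.0357).

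Amino acid carriers and stress responses to amino acid supply differed at single genes. Their counts stand beside shares of 7.01% higher and 6.66% lower over all tested genes. Of 22 carriers tested, 3 were higher (5 without L-ala replicate 5) and 1, Tmem27, lower (0 without D-ala replicate 1, 3 or 4 or L-ala replicate 1 or 4). Slc38a3, the glutamine carrier SNAT3, was at 36.7, 39.2, 46.8, 35 and 31.1 FPKM under D-ala, 17.1 to 23.1 under L-ala and 22.9 to 31 in vehicle (0.89 ± 0.11, adjusted p = 1.27e-04). Slc38a3 was called against vehicle in opposite directions, at 0.45 for D-ala (adjusted p = 0.012) and -0.43 for L-ala (adjusted p = 0.0213). Slc1a5, the neutral amino acid exchanger ASCT2, was at 19.5 ± 1.16 against 14.7 ± 1.51 FPKM (0.39, adjusted p = 0.00538), and the lysosomal carrier gene Slc36a1 differed by 0.28 (adjusted p = 0.0175). Slc38a2, the SNAT2 carrier that responds to amino acid starvation, was at 10.5 ± 1.37 and 10.2 ± 0.234 FPKM, with an interval from -0.19 to 0.27; both groups were called lower than vehicle (19.1 ± 4.11 FPKM, adjusted p = 2.51e-04 and 8.22e-04). In the ATF4 list, 3 of 24 tested were higher (Aars, Atf4 and Ppp1r15a) and 1, Cebpg, lower (2 lower without D-ala replicate 2), with a median of 0.03. Atf4 itself was at 136 to 200 against 96 to 112 FPKM (0.60 ± 0.12, adjusted p = 0.0047), and Aars, the alanyl-tRNA synthetase, differed by 0.30 ± 0.05 (adjusted p = 0.00321).

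Heat shock chaperones were lower under D-ala where they were called. Of 20 tested heat shock chaperones, 8 were lower and none higher, with a median of -0.26; with the length trend removed 9 were lower, and the number was 4 without D-ala replicate 1, D-ala replicate 3 or L-ala replicate 4. The 8 were Dnajb1, Hspa8, Chordc1, Ahsa1, Dnaja4, Hspe1, Hsp90aa1 and Hsp90ab1. Dnajb1, a co-chaperone of Hsp70, was at 15.3 to 18 FPKM under D-ala, 25.6 to 39.6 under L-ala and 20.8 to 35.7 in vehicle (-0.87 ± 0.13, adjusted p = 0.00101). Hspa8, the constitutive Hsc70, was at 207 to 253 against 289 to 423 FPKM (-0.59 ± 0.13, adjusted p = 0.0107). Dnajb1 was lower under D-ala than in vehicle as well (-0.65, adjusted p = 0.00482) and not called between L-ala and vehicle (0.22, adjusted p = 0.251). The inducible Hsp70 genes Hspa1a (-1.23, adjusted p = 0.106) and Hspa1b (-1.14, adjusted p = 0.0644) were not called, but were without L-ala replicate 5 (0.0393 and 0.0155); L-ala replicate 3 held 38.4 FPKM of Hspa1a where the other L-ala libraries held 3.98 to 16.3, and their near-identical sequences can share reads. Cirbp, a cold-inducible RNA-binding protein gene named after its values were seen, was at 57.3 to 81.4 FPKM under D-ala and 25.9 to 40.6 under L-ala (1.07 ± 0.14, adjusted p = 5.79e-04), and its relative Rbm3 was at 6.38 ± 1.02 and 5.33 ± 0.58 (0.21, adjusted p = 0.138).

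In the endoplasmic reticulum, 5 of 21 chaperones and unfolded protein response genes were lower (Pdia3, Hsp90b1, Pdia6, Dnajb11 and Hspa5), beside 6.66% of all genes. Xbp1 was the 1 higher member, beside 7.01%. No member was higher when any library but D-ala replicate 1, D-ala replicate 4 or L-ala replicate 5 was left out. Pdia3, a protein disulfide isomerase, was at 202 to 229 against 245 to 273 FPKM (-0.28 ± 0.05, adjusted p = 0.00467). The glucocorticoid-induced list held 2 lower genes of 22, Glul (-0.53, adjusted p = 0.0136) and Arrdc2, and a median of 0.03. Leaving out 1 library gave 1 to 3 lower members, with 1 for D-ala replicates 2, 3, 4 and 5 and L-ala replicate 4, and 2 were higher without L-ala replicate 5. Glul, glutamine synthetase, was at 331 to 430 FPKM under D-ala, 466 to 702 under L-ala and 370 ± 49.4 in vehicle.

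Antioxidant and hypoxia-linked genes were mostly higher under D-ala where they were called. Of 19 NRF2 targets tested, 5 were higher (Nfe2l2, Osgin1, Gclc, G6pdx and Nqo1), beside 7.01% of all genes, and 1, Me1, lower, beside 6.66%. The higher count was 3 without D-ala replicate 2 or L-ala replicate 1, 2 or 4, and the lower count 3 without D-ala replicate 2 or L-ala replicate 5. Nfe2l2, which encodes NRF2, was at 51 to 53.1 FPKM in all 5 D-ala libraries and 36.2 to 42.6 in the L-ala libraries (0.37 ± 0.06, adjusted p = 0.00115). Osgin1, an oxidative stress-induced growth inhibitor, was at 51.5 to 89 against 25.9 to 51.1 FPKM (0.93 ± 0.20, adjusted p = 0.0109). Gclc, the catalytic subunit for glutathione synthesis, was at 104 ± 23.9 under D-ala, 63 ± 14.6 under L-ala and 97.1 ± 14 FPKM in vehicle; the gap between isomers was called (0.72, adjusted p = 0.0167), as was L-ala below vehicle (-0.64, adjusted p = 0.0326), and D-ala against vehicle was not (0.08, adjusted p = 0.819). Among 20 hypoxia-inducible factor targets, Vegfa, Egln3, Pfkfb4, Pfkfb3 and Arnt were higher and none was lower. Vegfa, the vascular growth factor, was at 83, 75.5, 77.4, 98.8 and 106 FPKM against 43.8, 47, 51.4, 39.1 and 55.6 (0.88 ± 0.10, adjusted p = 7.14e-05). The number of higher hypoxia targets was 3 with the length trend removed, and also 3 without D-ala replicate 2, 3 or 4, L-ala replicate 1 or 2 or vehicle replicate 5.

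Nephron segment markers were called at single genes, and over all tested genes 7.01% were higher and 6.66% lower. In the proximal tubule 1 of 16 was higher and 2 were lower, and in the thick ascending limb none of 9 was called. In the distal convoluted and connecting tubule 1 of 11 was higher. Of 10 principal cell markers 1 was higher and 1 lower, and of 10 intercalated cell markers 2 were higher. The median difference was -0.01 over 16 proximal tubule markers, -0.04 over 9 of the thick ascending limb and 0.17 over 11 of the distal convoluted and connecting tubule. Slc22a6, the organic anion transporter OAT1, was higher (0.20, adjusted p = 0.0452). Kap (-0.38, adjusted p = 0.0195) and the lactate carrier gene Slc5a12 (-0.41, adjusted p = 0.0484) were lower. With the length trend removed the Kap difference had an adjusted p of 0.224. Slc5a12 was not called with the 10 alanine libraries alone (0.0751) or without L-ala replicate 4 (0.132). Summed proximal tubule markers, of which Kap is the most abundant, were 80746 to 108504 FPKM under D-ala and 112364 to 148274 under L-ala. Without L-ala replicate 5, 4 proximal tubule and 5 distal tubule markers were higher. Without any other single library but D-ala replicate 2 and vehicle replicate 4, no proximal tubule marker was higher. Slc12a3, the thiazide-sensitive sodium chloride cotransporter, was at 158 to 211 against 116 to 157 FPKM (0.48 ± 0.10, adjusted p = 0.00835). Aqp2, the vasopressin-regulated water channel, was at 200 to 247 FPKM under D-ala and 289, 282, 281, 304 and 229 under L-ala (-0.37 ± 0.09, adjusted p = 0.0179). Slc4a9, an anion exchanger of intercalated cells, was at 29.5 to 41.4 against 20.9 to 23.2 FPKM (0.52 ± 0.08, adjusted p = 0.00142). Ren1, renin, was at 38.7 to 69.4 against 22.5 to 41.8 FPKM (0.74 ± 0.20, adjusted p = 0.0292). Its call was lost with the 10 alanine libraries alone (0.0547) and without D-ala replicate 2, 3 or 4 or L-ala replicate 1, 3 or 4. Podxl, which encodes the podocyte surface protein podocalyxin, was higher under D-ala (0.28, adjusted p = 0.0413), and the median over 11 podocyte markers was 0.04. Podxl was not called with the 10 alanine libraries alone (0.0507) or without L-ala replicate 4 (0.105). Among 13 tubular injury markers Cst3 alone was called, at -0.28 (adjusted p = 0.0391), and 0.158 with the length trend removed. Without D-ala replicate 1, 3, 4 or 5 or L-ala replicate 1, 2, 3 or 4 no injury marker was lower, and without L-ala replicate 5 there were 2.

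Adipocyte transcripts varied between libraries without a call. All 12 tested had positive differences with a median of 0.79, and their sum was 239 to 807 FPKM under D-ala, a range that contains the 287 to 415 of L-ala. Without D-ala replicate 4, 1 member was higher.

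Some genes of protein synthesis and respiration were slightly lower under D-ala, and the counts moved with single libraries and with the length trend. Of 30 cytosolic ribosomal protein genes 7 were lower and none higher, with a median of -0.21, and of 31 respiratory chain and ATP synthase genes 4 were lower, with a median of -0.14 and 28 negative differences. The ribosomal members included Rps28 and Rpl15, and the respiratory members were Cox5a, Ndufa4, Cox6c and Cyc1. Without L-ala replicate 5 these counts were 16 and 14, without L-ala replicate 4 they were 2 and 1, without D-ala replicate 1, D-ala replicate 4 or L-ala replicate 3 the respiratory count was 1, and with the length trend removed they were 6 and 1. Rps28 had the largest ribosomal difference, at 8.92 to 15.1 against 15.6 to 23.4 FPKM (-0.78 ± 0.13, adjusted p = 0.00165, and 0.0334 with the length trend removed). Ndufa4, a cytochrome oxidase subunit, was at 2515 ± 136 against 3183 ± 429 FPKM (-0.33, adjusted p = 0.0237, and 0.357 with the length trend removed). Of 24 nucleolar ribosome biogenesis genes, Nop58, Utp20 and Nolc1 were higher and Npm1 was lower; no member was lower with the length trend removed, or without D-ala replicate 1, 3 or 4 or L-ala replicate 1, 3 or 4.

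**Figure D5:**
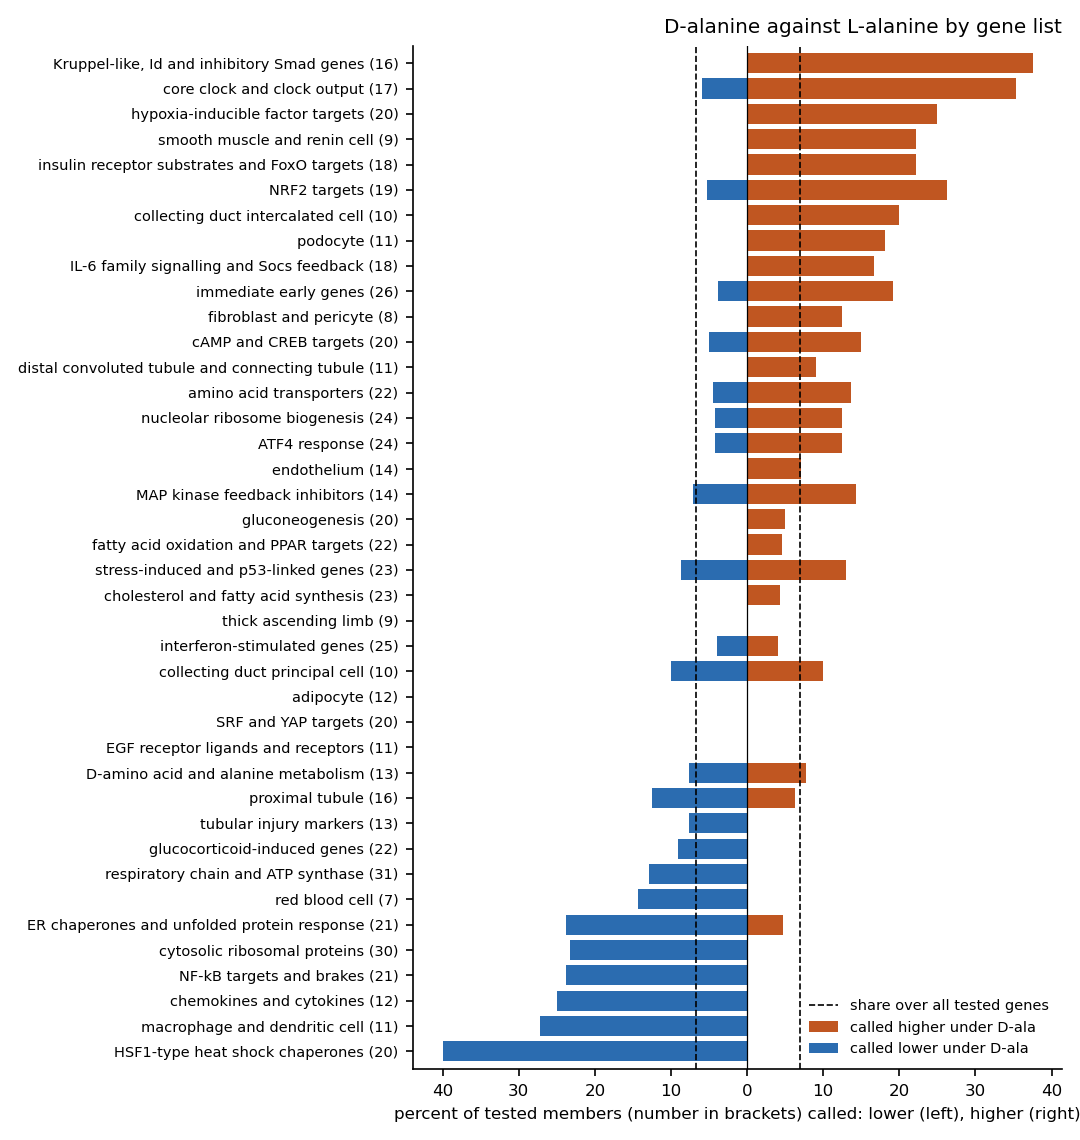
Bars give, for each gene list with at least 7 tested members, the percentage of tested members called higher (right, orange) and lower (left, blue) under D-ala than under L-ala, with the number tested in brackets. Dashed lines mark the shares over all tested genes, 7.01% higher and 6.66% lower; the heat shock list lies lowest with 8 of 20 called lower, and the Kruppel-like, Id and inhibitory Smad list highest with 6 of 16 called higher.

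Other large differences concerned genes of other roles. Elf3, an epithelial transcription factor, was at 11.5 to 18.9 FPKM under D-ala and 22.4 to 40.5 under L-ala (-0.94 ± 0.25, adjusted p = 0.0286). Plekhf1, an endosomal and lysosomal adaptor, was at 15.4 to 19.4 against 25.3 to 40.2 FPKM (-0.86 ± 0.17, adjusted p = 0.00542), with vehicle at 17 ± 5.52. Klhl25, a substrate adaptor of a cullin ligase, was at 1.56 to 2.36 against 3.1 to 4.35 FPKM (-0.73 ± 0.11, adjusted p = 8.25e-04). For Elf3 and Plekhf1 the L-ala libraries differed from vehicle, by 1.02 (adjusted p = 0.026) and 0.89 (adjusted p = 0.00799), and the D-ala libraries did not, at 0.08 (adjusted p = 0.886) and 0.02 (adjusted p = 0.952).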

How the data were processed

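Kidney messenger RNA was sequenced in 15 libraries, 5 per group; per the labels' protocols TRIzol was used for RNA and a stranded TruSeq kit for libraries. The tools were SAMtools 0.1.19, Bowtie2 2.2.3 and TopHat2 2.0.13 with build mm10, per the submitters' processing notes, which state no roles. For the values per gene the program, annotation and strand setting were not given in the sources used here; near-identical or overlapping genes may share reads. The deposited table held 23284 genes, 5217 of them at 0 in every library, and no column of per-sample values was left unassigned. The deposited FPKM, named so per the file headers, were tested. The deposited log2 values equal log2 FPKM minus the gene mean, to 0.00117, and were not used further. The deposited column headed as a count was treated as a score, because each library's numbers had been rescaled and rounded; undoing the scale put 78.75% of low values within 0.1 of a whole number and gave depths of 7.52 to 10.9 in units of 1e6 reads. No count test was run on whole reads. FPKM carry no counting interval, so precision is the spread between libraries.

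The 11781 genes that reached 1 FPKM in at least 5 libraries were fitted as log2(FPKM + 1) with limma 3.58.1 in R 4.3.3, with 1 mean per group over all 15 libraries and moderation that was robust and followed the mean-variance trend. Adjusted p-values are Benjamini-Hochberg over all tested genes, intervals are at 95%, and the added 1 FPKM makes differences of low genes too small. One pair of isomers was compared. Measures of whole libraries were tested by exact permutation, two-sided and unadjusted, in Python 3.11.15. Gene length was taken from the table itself, as the ratio of the rescaled column to FPKM. The fit was tested on simulated data.

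Named genes are the 12 largest called differences in each direction without overlap between the libraries (genes with at least 1 FPKM, leaving out unnamed models), up to 3 called members of each of 43 gene lists by smallest p, and a short set named whatever its result; not all of these are given with values, and further called members are named for some lists. Cirbp, Rbm3, Hspa1a, Hspa1b, Icam1, Slc34a1, Slc20a2, Max, Mlx, Ddit4, Fgf18 and Cyp27b1 were chosen after their values were seen. Some genes that the rule names are not reported here. The groups, lists and rules were chosen with earlier results of these data known. Of the symbols, 20719 matched RefSeq directly and 2316 as older symbols. Promoters are from RefSeq, GRCm38.p6. The 28 alternatives, of which 2 were added after seeing the data, are given in the closing section.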

Additional observations from a re-analysis of the deposited data

Results flagged for a closer look

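In each group of 5, a value was singled out when its gap to the nearest other library, divided by the range, passed Dixon's critical value of 0.71; chance does this in about 1 of 20 groups, and 13 of 232 groups checked met it. Under D-ala, replicate 2 read 5.45 FPKM of Tnfaip3 where the others read 0.927 to 1.45, and 12.7 FPKM of Adm2 against 7.84 to 8.9. Replicate 4 read 4.69 FPKM of Nfil3 against 12.9 to 14, and 1.18 FPKM of Fgf18 against 6.7 to 11.6. Egr1 was at 8.98 FPKM in replicate 3 and 18.3 to 24.2 in the rest. Replicate 5 stood above the others in Slc5a12 (100 FPKM, others 75.9 to 80.6) and Slc4a9 (41.4 FPKM, others 29.5 to 32.1), and its first component score of 6.69 lay below the 12.7 to 14.5 of the other D-ala libraries.

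Under L-ala, replicate 3 was low in Stat3 (13.6 FPKM, others 15.1 to 15.7). Replicate 5 was high in Ddo (23.6 FPKM, others 19 to 19.8) and Cpt1a (152 FPKM, others 111 to 121) and low in Aqp2 (229 FPKM, others 281 to 304). Its mean correlation with the other L-ala libraries, over deviations from each gene's mean, was -0.192, where theirs were 0.046 to 0.058. Of the 2761 genes called without it, 1825 (66.1%) had a value in this library nearer to the D-ala mean than to the mean of the other L-ala libraries.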

How the results depend on the processing

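The number of genes called between D-ala and L-ala ran from 770 to 2761 when 1 library was left out; calls higher under D-ala ran from 467 to 1261 and lower from 303 to 1500. The lowest values are without L-ala replicate 4 and the highest without L-ala replicate 5. Total calls also moved by over 1.5 times without D-ala replicate 1 (1019), D-ala replicate 3 (969), D-ala replicate 4 (1061), L-ala replicate 1 (1026) and L-ala replicate 3 (1070). With the 10 alanine libraries alone there were 975 calls, 411 of them lower under D-ala, and with a quality weight per library 2700, with 1461 lower. The cause was not tested. A limma voom fit, added after seeing the data, used the rescaled count column with the scale undone and the values rounded to whole numbers. It made 1627 calls but 495 lower, so that 69.6% were higher under D-ala in place of 51.3%. The median difference in that fit was 0.031. Removing each library's length trend gave 1336 calls, of which 1090 were among the 1611. Of 139 named genes 120 were called, 67 of them in every one of the 28 alternatives. Among 3874 values of named genes under alternatives, 12 of genes that were not called (Dao, Slc38a2 and Slc34a1) changed sign, between -0.05 and 0.12. Of called genes 1 changed sign, Kap under quantile normalization, at 0.00, because the most abundant gene of each library is set to 1 common value by that method. The planned count test on recovered reads was not run, since too few values came out whole before rounding, and the limma voom fit took its place. No paired analysis was possible because the replicate numbers only follow sample order and pair no libraries. Depth limits the genes under 1 FPKM, 11503 of which were not tested.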

Other observations

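Lipid and interferon genes showed single differences. Cpt1a, the carnitine carrier enzyme that admits fatty acids to mitochondria, was the only called gene of 22 in fatty acid oxidation, at 169 ± 22.3 FPKM under D-ala and 121 ± 17.7 under L-ala (0.48, limma adjusted p = 0.00433); without L-ala replicate 5, 5 members were called higher. Acly, ATP citrate lyase, was the only called gene of 23 in cholesterol and fatty acid synthesis, at 58 ± 8.92 against 40.6 ± 5.8 FPKM (0.50, adjusted p = 0.0134); a second was higher without D-ala replicate 5, and 1 was lower without L-ala replicate 3. Of 25 interferon-stimulated genes, Ddx58, which encodes the RNA sensor RIG-I, was higher (0.28, adjusted p = 0.0134) and Ifi35 lower (-0.29, adjusted p = 0.0267); 20 of the 25 differences were negative, with a median of -0.16. Neither call was made with the length trend removed, and the lower count was 0 without D-ala replicate 1 or L-ala replicate 1, 3 or 4 and 2 without D-ala replicate 2 or L-ala replicate 2. None of 20 SRF and YAP targets was called; without L-ala replicate 5, 1 was higher and 1 lower.

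Cyp27b1, the vitamin D 1-alpha-hydroxylase, chosen after its values were seen, was at 45.4, 90.1, 64.4, 54 and 55 FPKM under D-ala and 7.53, 24.4, 16, 38.6 and 58.6 under L-ala. The difference of 1.32 was not called (adjusted p = 0.135), and L-ala replicate 5 alone overlapped the D-ala libraries; without it the adjusted p was 0.0531.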
